A study of Mus musculus with 6 samples.

Results

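The genes described here are the Wnt ligands, the Frizzled receptors, the co-receptors and other receptors of Wnt proteins, and the secreted antagonists of the pathway, measured by RNA-seq in mouse vagal ganglia. They were chosen by gene symbol alone, as every row whose symbol names a Wnt, Fzd, Sfrp, Dkk, Lrp5, Lrp6, Ror, Ryk or Wif1 gene, which gave 44 of the 32719 genes in the files. There are 19 ligands, 10 Frizzled receptors, 5 co-receptors and other receptors, and 10 antagonists.

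The 3 control and 3 treated libraries were made from RNA of the jugular-nodose ganglia, where the cell bodies of the sensory vagus nerve lie. The protocol describes wild-type male C57BL/6J mice that carried osmotic pumps under the skin for 2 weeks, filled with PBS or, in the treated group, S961 in PBS (10 nmol per week), a peptide antagonist of the insulin receptor. The treatment label of all 6 libraries reads S961, so the control group is defined here by the sample titles. No age is given. Nothing in the labels ties each replicate to its own animal, and each p-value therefore measures only the spread between these libraries. Although the ganglia are named as the cell source, the tissue is labelled spinal cord. Of 11 markers of spinal cord and CNS glia, 5 passed the filter on low counts (Aldh1l1, Aqp4, Gfap, Slc1a2 and Slc6a11, with up to 709 counts in a library for Aldh1l1). The other 6, among them the oligodendrocyte gene Mog and the caudal gene Hoxc10, had at most 16 counts in any library. All 11 sensory neuron markers were tested.

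Wnt proteins are secreted, lipid-modified ligands that bind Frizzled receptors on nearby cells. With the co-receptors Lrp5 and Lrp6 they stabilise beta-catenin, which then acts with TCF and LEF factors on target genes, and with Ror2, Ryk and related receptors they act on cell polarity, calcium and the cytoskeleton without it. Sfrp proteins and Wif1 bind Wnt ligands outside the cell, and Dkk1, Dkk2 and Dkk4 bind Lrp5 and Lrp6. In the nervous system the pathway is known for axon guidance, for synapse formation and for responses of sensory neurons and glia to nerve injury.

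The libraries held 12898607 to 33522486 gene counts. Treated replicate 3, the smallest, stood apart from the rest, with correlations to the other libraries of 0.920 to 0.944 across genes, where genes are not independent replicates. It had the highest summed level of fat cell markers, at 575.6 CPM (counts per 1000000 counts of the scaled library size) against 10.0 to 74.5 in the other libraries, of macrophage markers, at 468.7 against 49.7 to 123.1, and of fibroblast markers, at 2949 against 761.3 to 1665. It also had 11.3% of its counts in small RNA genes, against 4.42% to 7.05% in the other libraries. Log2 fold changes without treated replicate 3 are given for the members described below. In bulk RNA, fewer cells of a type and less RNA per cell cannot be told apart.

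All 44 members had at least 1 count, and 30 passed the filter on low counts and were tested. Of these, Wnt11 was at the filter level in no control library and so entered through the treated libraries. Levels between genes are compared per kb of exon, as CPM per kb. On that scale the secreted antagonists were the most abundant class, with a summed level of 97.4 ± 6.55 CPM per kb in the control group and 94.5 ± 13.1 in the treated group (SD, n = 3). The Frizzled receptors summed to 23.7 ± 2.44 and 23.0 ± 2.80, the co-receptors and other receptors to 14.2 ± 0.839 and 17.3 ± 3.30, and the ligands to 12.8 ± 1.09 and 14.4 ± 2.90. The groups overlapped for the antagonists, the Frizzled receptors and the ligands. For the co-receptors and other receptors every treated library was higher, at 15.0, 15.9 and 21.1 CPM per kb against 13.2, 14.7 and 14.7. Of these genes only Ror2 was higher in every treated library on its own. Lrp6, Lrp5, Ryk and Ror1 each overlapped between groups, so the sum does not stand for the whole class.

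**Figure D1:**
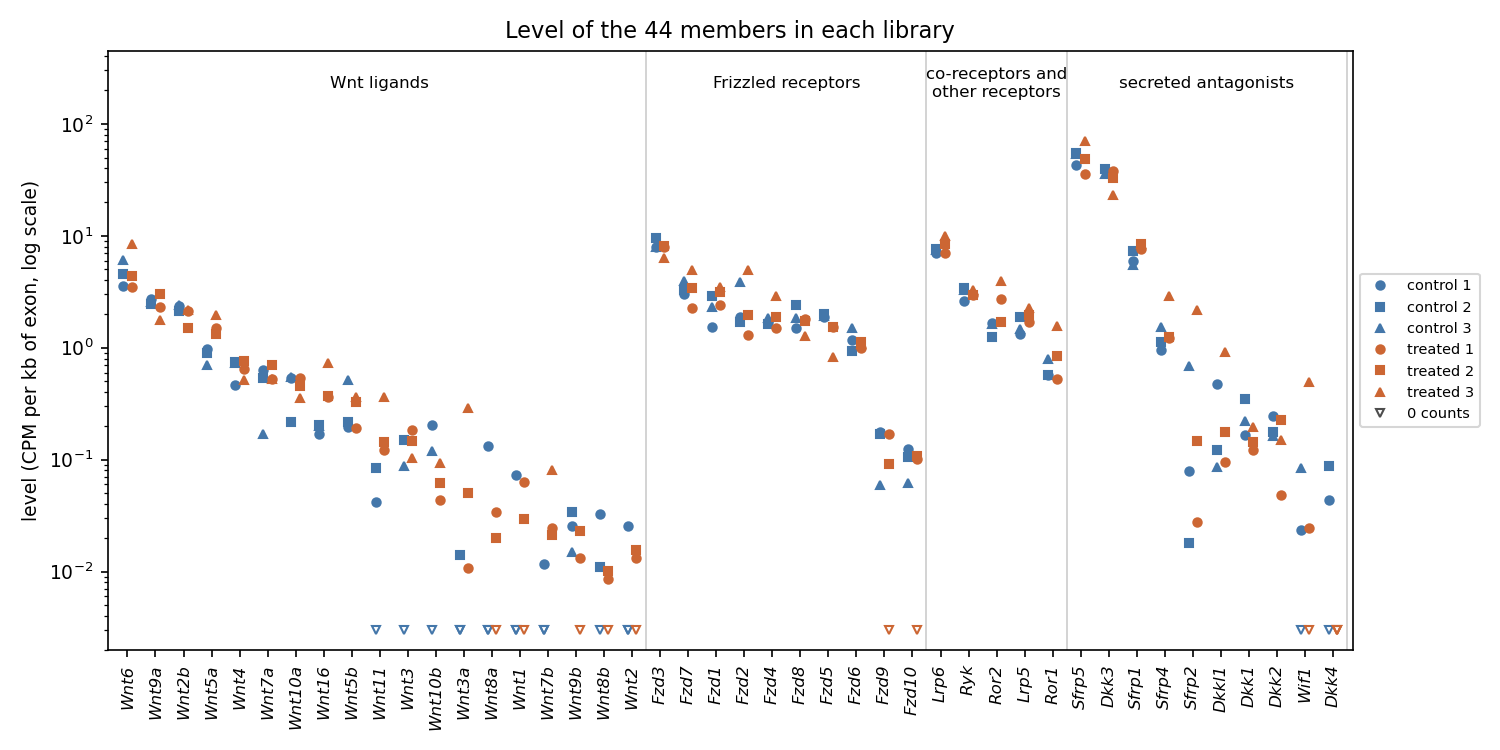
Level of each of the 44 members in every library, in CPM per kb of exon on a log axis, ordered within each class by mean level. Blue points are controls, orange points are treated libraries, and open triangles at the bottom mark libraries with 0 counts. Every library of Sfrp5 and Dkk3 lies above every library of the other members.

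Among the ligands Wnt6, known from epithelial and neural crest development, was the most abundant at a mean of 5.07 CPM per kb over the 6 libraries. Wnt9a followed at 2.48, Wnt2b at 2.11 and Wnt5a at 1.23. Wnt6 had 7.74, 10.0 and 13.2 CPM in controls and 7.62, 9.61 and 18.4 CPM in treated replicates 1, 2 and 3. Its groups overlapped. Its lowest library, at 3.48 CPM per kb, was above the highest of Wnt9a, at 3.05. Wnt9a had 9.11, 8.23 and 8.51 CPM in controls and 7.68, 10.1 and 5.89 CPM in treated libraries, and Wnt2b had 9.86, 8.92 and 10.1 CPM against 8.87, 6.27 and 9.07. The groups of both ligands overlapped, with log2 fold changes (treated over control) of -0.12 ± 0.22 and -0.26 ± 0.19 (SE), or 0.05 and -0.34 without treated replicate 3. Wnt9a and Wnt2b had overlapping levels per length, from 1.77 to 3.05 and from 1.49 to 2.41 CPM per kb, so their order is not resolved.

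Of the ligands, 8 were not tested. Wnt1, Wnt2, Wnt8a, Wnt8b and Wnt9b had at most 5 counts in any library, Wnt7b at most 5, Wnt3a at most 10 and Wnt10b at most 12. Wnt1, Wnt2, Wnt8a and Wnt8b were at 0 counts in at least 1 library of each group, which allows up to 3 counts, or 0.0893 to 0.239 CPM depending on the library. Wnt7b, a canonical ligand in many tissues, had 1, 0 and 0 counts in controls and 4, 3 and 5 in treated libraries. Wnt3a had 0, 1 and 0 counts against 1, 4 and 10. These counts are too low for a fold change to be read from them.

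Several Wnt genes lie next to each other in the mouse genome, and the levels of neighbours differed. Wnt6 (chromosome 1, 74771892 to 74785322, plus strand, GRCm38) lies 6193 bp from Wnt10a, which is on the same strand and stood at 0.440 CPM per kb against 5.07 for Wnt6. Wnt9a (chromosome 11, 59306928 to 59333552, plus strand) lies 16175 bp from Wnt3a on the opposite strand, with 2.48 and 0.0605 CPM per kb. In the other close pairs, Wnt9b with Wnt3 and Wnt10b with Wnt1, all genes were at or below 0.112 CPM per kb.

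Fzd3, the Frizzled needed for the guidance of many axons, was the most abundant receptor of its class at 7.99 CPM per kb, ranging from 6.34 to 9.61. No library of Fzd7, next at 3.48 CPM per kb, reached that range, since its highest was 4.90. Fzd1 at 2.62 and Fzd2 at 2.61 CPM per kb followed, and their ranges overlapped with that of Fzd7. Fzd3 had 101, 123 and 102 CPM in controls and 103, 104 and 81.2 CPM in treated libraries, a log2 fold change of -0.18 ± 0.13 (SE), or -0.08 without treated replicate 3. Fzd1 had 6.42, 12.2 and 9.73 CPM against 10.0, 13.1 and 14.6, with overlap between groups and a log2 fold change of 0.40 ± 0.26, or 0.28 without that library. Fzd9 and Fzd10 were not tested, with at most 13 and 11 counts in a library and 0 in treated replicate 3.

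Lrp6 was the most abundant of the co-receptors and other receptors at 7.92 CPM per kb, and its sister co-receptor Lrp5 stood at 1.76. Lrp6 had 95.9, 103 and 102 CPM in controls and 96.8, 115 and 137 CPM in treated libraries, with overlap. Lrp5 had 13.0, 18.2 and 14.2 CPM against 16.4, 18.9 and 22.1, also with overlap. Their log2 fold changes were 0.21 ± 0.13 and 0.33 ± 0.18 (SE), and 0.07 and 0.22 without treated replicate 3. Ryk, a catalytically inactive receptor kinase that binds Wnt ligands, had 11.9, 15.6 and 15.0 CPM against 13.5, 13.4 and 15.0, at -0.02 ± 0.15, or -0.07 without that library.

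Sfrp5, a secreted Frizzled-related protein, was the most abundant of all 44 members at 51.1 CPM per kb, and Dkk3 was second at 34.8. Dkk3 differs from the other Dkk proteins in that it does not act as a simple inhibitor of Lrp5 and Lrp6. Sfrp5 had 81.6, 104 and 103 CPM in controls and 68.0, 92.5 and 134 CPM in treated libraries, so that the treated group held both the lowest and the highest value. Dkk3 had 133, 133 and 120 CPM against 127, 110 and 77.2, a log2 fold change of -0.29 ± 0.17 (SE) in which treated replicate 3 was lowest. Without that library it was -0.12. Dkk1 and Dkk2, the inhibitors of Lrp5 and Lrp6, were low at 0.200 and 0.169 CPM per kb, and Dkk4 had at most 3 counts.

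Treated and control libraries were compared to ask which members differ in the ganglia after S961 infusion, and no member passed. With edgeR's quasi-likelihood test and Benjamini-Hochberg adjustment over all genes, 0 of the 30 tested members had an adjusted p under 0.05, as had 0% of all 16019 genes tested, and the smallest adjusted p among members was 0.595. DESeq2's Wald test called 0 members and 0.567% of all genes, limma-voom called 0 members and 0% of genes, and limma-voom with sample weights called 0 members and 0.0499% of genes. At an unadjusted edgeR p under 0.05, 4 tested members (13.3%) were higher in treated ganglia, beside 4% of all genes tested. They were Wnt5a, Wnt16, Sfrp1 and Ror2. On the same criterion 1 member (3.33%) was lower, Fzd5, beside 2.67% of genes. Without treated replicate 3 the counts of members higher and lower were 4 and 1, beside 3.63% and 4.31% of genes. The shares were not compared by a test.

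The 3 treated libraries all lay above the 3 controls for the 4 members named as higher, beside 7.07% of genes. They did so for Wnt11 too, which is set apart because it passed the filter only through its treated libraries. With Wnt11 the share of tested members was 16.7%. The treated libraries all lay below the controls for 1 member (3.33%), Fzd5, beside 7.63% of genes. The smallest p that an exact permutation test of 3 libraries against 3 can give is 0.1, which each of these 6 members reached. Any gene whose groups do not overlap reaches it, so it adds nothing to that separation. The median log2 fold change of the tested members was 0.10 against 0.02 for all genes, and 0.01 without treated replicate 3 and 0.29 without treated replicate 1. Of the 30, 18 had a positive log2 fold change, beside 52.8% of genes.

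**Figure D2:**
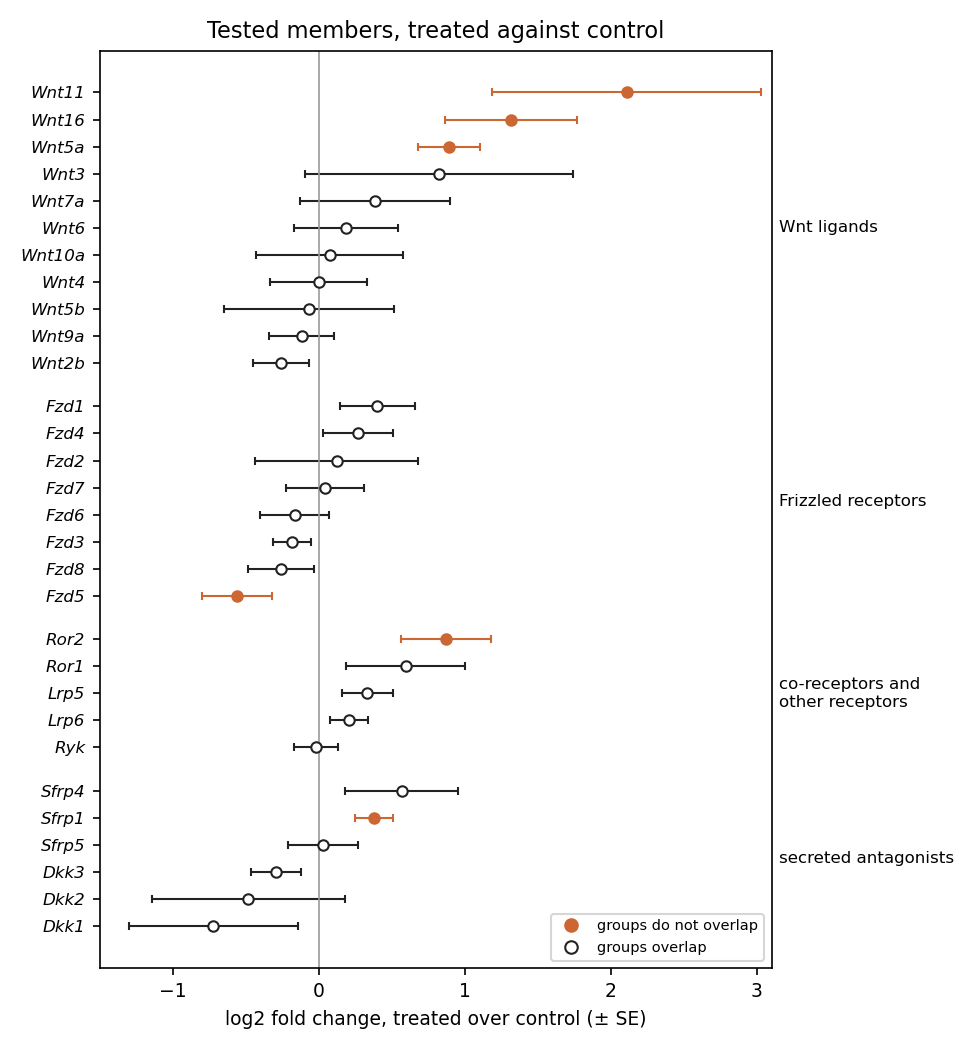
Log2 fold change of the 30 tested members, treated over control, with SE from edgeR. Filled orange points mark the 6 members whose groups did not overlap, which run from -0.56 for Fzd5 to 2.11 for Wnt11. Open points mark members whose groups overlapped. Wnt11 passed the filter only through its treated libraries.

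Wnt5a (ENSMUSG00000021994, chromosome 14, 28504750 to 28527448, plus strand, GRCm38) had the smallest p of the members. It encodes the ligand best known for acting without beta-catenin, often through Ror2. Wnt5a had 7.62, 7.04 and 5.47 CPM in control replicates 1, 2 and 3 and 11.8, 10.3 and 15.4 CPM in treated replicates 1, 2 and 3, from 81 to 397 counts. Every treated library was above every control. The means were 6.71 ± 1.11 and 12.5 ± 2.57 CPM (SD, n = 3), a log2 fold change of 0.89 ± 0.21 (SE) or 1.85-fold. The edgeR p was 0.00338 unadjusted and 0.595 adjusted, and DESeq2 gave an adjusted p of 0.0621. Its unadjusted p stayed under 0.05 in all 16 alternatives, where the log2 fold change ran from 0.66 to 1.00 and the adjusted p from 0.0621 to 0.995. Without treated replicate 3 it was 0.72. An antisense gene, Gm2670, covers 358 bp of its exons. The share of Wnt5a in the summed ligand level per length was 8.04%, 7.33% and 4.97% in controls and 12.4%, 9.88% and 11.1% in treated libraries, without overlap.

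Ror2 (ENSMUSG00000021464, chromosome 13, 53109312 to 53286124, minus strand), a receptor tyrosine kinase that binds Wnt5a, had 7.11, 5.31 and 6.89 CPM in controls and 11.5, 7.21 and 16.8 CPM in treated libraries. Treated replicate 2 lay close to the highest control, replicate 1. The log2 fold change of 0.87 ± 0.31 (SE) had an edgeR p of 0.0233 unadjusted and 0.701 adjusted. It was 0.55 without treated replicate 3, 1.12 without treated replicate 2 and 0.43 with sample weights. The related receptor Ror1 had 3.27, 3.27 and 4.53 CPM against 3.04, 4.84 and 8.99, with overlap, and stood at 0.59 ± 0.41, or 0.10 without treated replicate 3.

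Wnt16 (ENSMUSG00000029671, chromosome 6, 22288227 to 22298522, plus strand), a ligand known from bone and synovial joints, had 0.745, 0.885 and 0.879 CPM in controls and 1.58, 1.60 and 3.18 CPM in treated libraries. These values rest on 13 to 53 counts per library. Treated replicates 1 and 2 were close together and treated replicate 3 was higher, all above the controls. Its log2 fold change of 1.32 ± 0.45 (SE) had an edgeR p of 0.0201 unadjusted and 0.696 adjusted, and was 0.92 without treated replicate 3. Wnt11 (ENSMUSG00000015957, chromosome 7, 98835112 to 98855195, plus strand), a ligand of the cell polarity branch, had 3, 9 and 0 counts in controls and 17, 17 and 19 in treated libraries. Its fitted log2 fold change of 2.11 ± 0.92 depends on very few control counts and ran from 1.49 without treated replicate 3 to 3.12 without control replicate 2. An antisense gene, Gm8398, covers 364 bp of its exons.

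Sfrp1 (ENSMUSG00000031548, chromosome 8, 23411502 to 23449632, plus strand), which binds Wnt ligands in the extracellular space, was the most abundant of the 6 members. It had 26.3, 32.2 and 24.0 CPM in controls and 33.6, 36.9 and 36.8 CPM in treated libraries. The closest values, control replicate 2 and treated replicate 1, differed by less than the spread of the controls. The means were 27.5 ± 4.24 and 35.8 ± 1.89 CPM (SD, n = 3), a log2 fold change of 0.38 ± 0.13 (SE) with an edgeR p of 0.0207 unadjusted and 0.696 adjusted. Without treated replicate 3 it was 0.36.

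Fzd5 (ENSMUSG00000045005, chromosome 1, 64730558 to 64737751, minus strand), a Frizzled receptor, was the 1 member lower in every treated library. It had 13.0, 13.8 and 13.2 CPM in controls and 10.7, 10.6 and 5.73 CPM in treated libraries. It stood at -0.56 ± 0.24 (SE) on the log2 scale, with an edgeR p of 0.0497 unadjusted and 0.737 adjusted, and at -0.33 without treated replicate 3. The annotation places an antisense gene, Gm38058, over 1233 bp of the Fzd5 exons. Whether counting used strand is not stated in the labels, so for Fzd5, Wnt5a and Wnt11 reads of the antisense partner cannot be told apart.

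**Figure D3:**
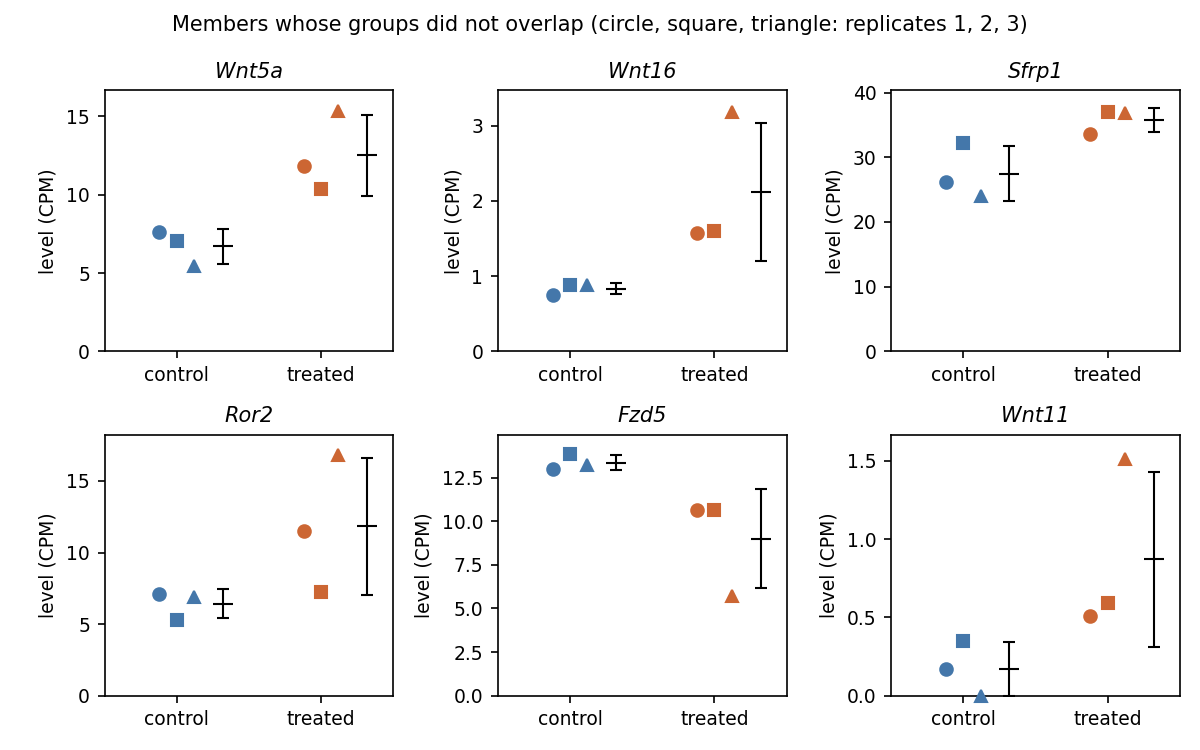
Level in CPM of the 6 members whose groups did not overlap, with control libraries in blue and treated libraries in orange (circle, square and triangle are replicates 1, 2 and 3). Black bars give the mean and SD of 3 libraries, and treated replicate 3 is the treated library farthest from the control mean for every gene shown except Sfrp1.

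Upstream sequence is shown for those of the 5 members with an unadjusted p under 0.05 that RefSeq's promoter table holds, Ror2, Wnt16 and Fzd5, so that the start regions of a higher and a lower receptor and of a ligand can be compared. Each run is the 250 bases before the annotated start, written 5′ to 3′ on the gene's strand (build GRCm38.p6), at chr13:53286125-53286374 on the minus strand for Ror2, chr6:22287977-22288226 on the plus strand for Wnt16 and chr1:64737751-64738000 on the minus strand for Fzd5. Capitals mark matches to the AP-1 motif TGAGTCA, to the TCF/LEF motifs (CTTTGAA together with CTTTGAT as well as CTTTGTA along with CTTTGTT), or to the cAMP response element TGACGTCA, each searched on both strands.
Ror2: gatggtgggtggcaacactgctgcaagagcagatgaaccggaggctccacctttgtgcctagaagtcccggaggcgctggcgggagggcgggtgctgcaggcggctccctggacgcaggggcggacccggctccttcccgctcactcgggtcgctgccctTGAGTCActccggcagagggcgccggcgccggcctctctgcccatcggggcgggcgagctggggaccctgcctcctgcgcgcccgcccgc
Wnt16: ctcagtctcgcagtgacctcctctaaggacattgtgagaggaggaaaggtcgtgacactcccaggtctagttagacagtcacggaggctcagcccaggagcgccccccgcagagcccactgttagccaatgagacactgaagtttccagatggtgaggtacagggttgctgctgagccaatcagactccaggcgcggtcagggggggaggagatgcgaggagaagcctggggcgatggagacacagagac
Fzd5: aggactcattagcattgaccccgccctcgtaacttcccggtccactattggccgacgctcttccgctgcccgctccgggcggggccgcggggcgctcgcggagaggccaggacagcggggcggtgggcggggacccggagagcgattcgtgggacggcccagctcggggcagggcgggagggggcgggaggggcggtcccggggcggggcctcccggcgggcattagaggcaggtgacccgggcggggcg
The Ror2 window held 1 AP-1 match, whose first base lies 90 bases before the start, and the windows of Wnt16 and Fzd5 held none of these letters. Over all 32851 windows of this length in the table, 4.46% held the AP-1 letters, 14.8% a TCF/LEF motif and 1.55% the cAMP response element. The windows of Fzd5 and Ror2 were 76.4% and 73.2% G or C and that of Wnt16 was 59.2%, against a median of 52.4% over all windows.

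In the treated group, some members were highest and lowest in the same libraries as markers of connective tissue. Set against the control mean, the average log2 level of 10 fibroblast markers was 0.11, -0.63 and 0.52 in control replicates 1, 2 and 3 and -0.82, -0.11 and 1.65 in treated replicates 1, 2 and 3. All 10 were highest in treated replicate 3, none was at 0 in all libraries, and their summed level ran from 1028 to 1665 CPM in controls and from 761.3 to 2949 CPM in treated libraries. Perineurial markers, from the sheath around nerve bundles, ran from 279.6 to 366.4 and from 260.4 to 561.9 CPM, and all 8 were highest in treated replicate 3. Treated replicate 3 was the highest and treated replicate 1 the lowest library for 6 of the 30 tested members, Wnt6, Fzd2, Fzd4, Fzd7, Ror1 and Sfrp5, beside 6.86% of all genes tested. Among controls, Fzd2 and Fzd4 were lowest in replicate 2 and highest in replicate 3, as the fibroblast markers were. Wnt6, Fzd7 and Ror1 were highest in control replicate 3 but lowest in replicate 1, and Sfrp5 was highest in control replicate 2. Summed fat cell markers were also highest in treated replicate 3 and lowest in treated replicate 1.

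Fzd2 had 6.88, 6.27 and 14.2 CPM in controls and 4.79, 7.21 and 18.1 CPM in treated libraries, and so was high in the same library of each group as the fibroblast markers. Fzd7 had 13.6, 14.9 and 18.0 CPM against 10.4, 15.6 and 22.2. Their log2 fold changes of 0.12 ± 0.56 and 0.04 ± 0.27 (SE) became -0.59 and -0.26 without treated replicate 3, and those of Wnt6 and Sfrp5 went from 0.19 and 0.03 to -0.26 in both. Sfrp4 had 4.01, 4.65 and 6.42 CPM against 5.15, 5.23 and 12.2, and its log2 fold change went from 0.57 ± 0.38 to 0.05. The part of connective tissue in these values was not tested.

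The other antagonists that were not tested were also uneven. Sfrp2 had 3, 1 and 22 counts in controls and 2, 9 and 59 in treated libraries, so that its highest libraries were control replicate 3 and treated replicate 3, as for the fibroblast markers. Wif1 had 1, 0 and 3 counts against 2, 0 and 15, and Dkkl1 had 13, 5 and 2 against 5, 8 and 18. These 3 genes are given here because their values were uneven.

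In treated replicate 1, where the fibroblast level was the lowest of the 6 libraries, Wnt5a stood at 0.82, Ror2 at 0.84, Wnt16 at 0.85 and Sfrp1 at 0.30 on the log2 scale relative to the control mean. All 4 were above all controls in that library, which holds for any member whose treated libraries all lie above the controls. Wnt5a, Ror2 and Wnt16 were highest in treated replicate 3, where the fibroblast level was highest. The part of connective tissue in the levels of these 4 members was not tested.

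No jugular or nodose neuron marker had an edgeR adjusted p under 0.05, but the levels of both lists separated the groups. DESeq2's Wald test did call some of these markers. Its adjusted p was 0.00146 for Gfra3, 0.0175 for Prdm12 and 0.0413 for Runx1 of the jugular list. For Gpr65 and Glp1r of the nodose list it was 0.000919 and 0.00657. The mean log2 level of 7 jugular neuron markers, against the control mean, was 0.06, 0.21 and -0.27 in controls and 1.04, 0.40 and 1.42 in treated replicates 1, 2 and 3. That of 9 nodose neuron markers was 0.04, 0.01 and -0.05 against -0.33, -0.36 and -1.14. Their summed levels were 248.0 to 294.2 CPM in controls and 328.4 to 653.6 in treated libraries for the jugular list, and 1549 to 1659 against 1056 to 1538 for the nodose list, with no marker at 0 in all libraries. The nodose list was mixed, since its mechanosensory channel gene Piezo2 was higher in every treated library (0.41 ± 0.14, SE) and P2rx3 stood at 0.04 ± 0.18. Summed levels also separated the groups for sympathetic and glomus cell markers, at 363.0 to 381.7 CPM in controls and 214.3 to 338.8 in treated libraries. For spinal cord and CNS glia they were 42.2 to 43.0 against 45.5 to 46.5, and for salivary and epithelial cells 70.8 to 111.0 against 138.7 to 189.4. Of the 5 tested CNS glia markers, 0 separated the groups on their own. The epithelial sum was mostly 1 gene, Cdh1, at 70.6 to 110.6 CPM in controls and 137.4 to 187.7 CPM in treated libraries. The other epithelial markers were too low to be tested, so that sum does not stand for the list. All 10 Schwann cell markers had a positive log2 fold change, with overlap in their sums. Wnt5a, Ror2, Wnt16, Sfrp1 and Fzd5 separated the groups as well. So did Wnt11, which passed the filter only through its treated libraries. In treated replicates 1, 2 and 3 Wnt5a stood at 0.82, 0.63 and 1.20 and Ror2 at 0.84, 0.17 and 1.38. That is the order of the jugular list, which Wnt11 and Sfrp1 did not share. Wnt16, at 0.85, 0.87 and 1.82, was nearly level in treated replicates 1 and 2. Fzd5 stood at -0.32, -0.33 and -1.21, where the nodose list was at -0.33, -0.36 and -1.14. The part of these cell types in the results of the 6 members was not tested.

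**Figure D4:**
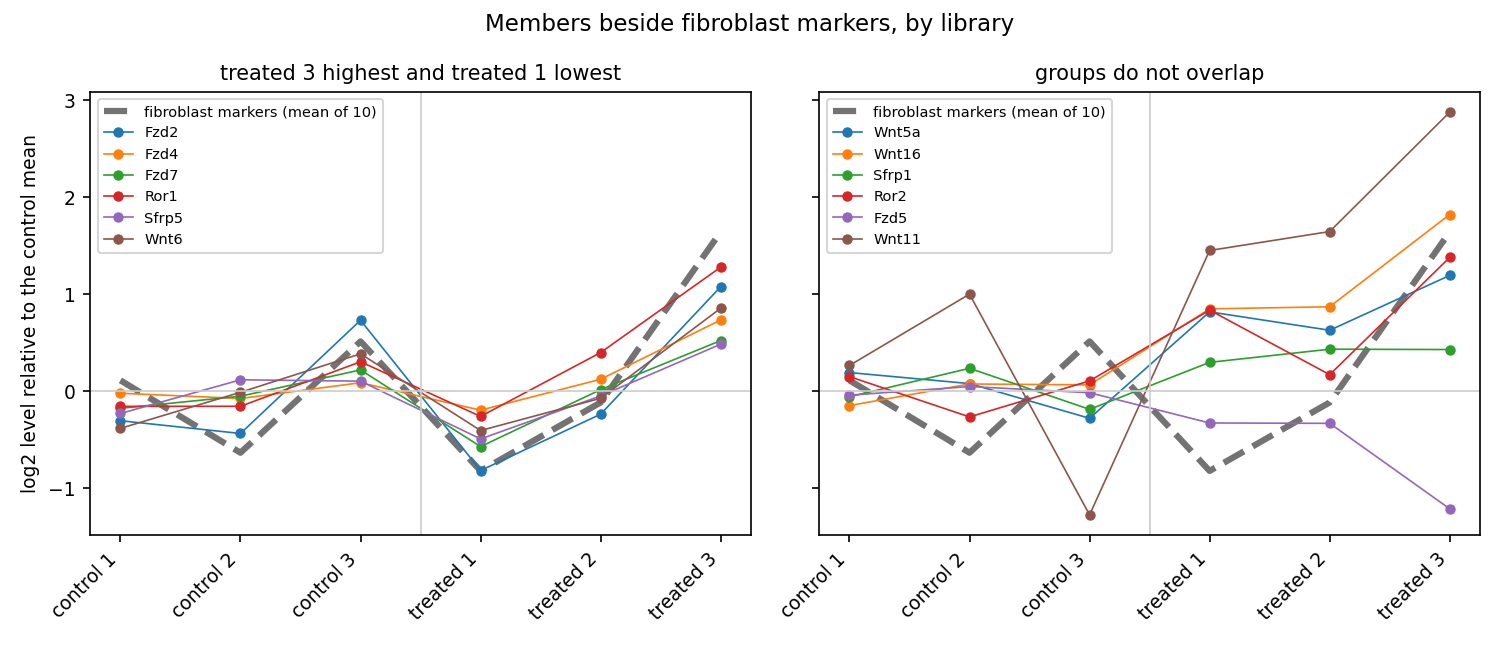
Log2 level relative to the control mean in each library, for the 6 members that were highest in treated replicate 3 and lowest in treated replicate 1 (left) and the 6 whose groups did not overlap (right). The grey dashed line is the mean of 10 fibroblast markers, and lines only join the points of 1 gene. In treated replicate 1 the fibroblast line is at -0.82 and Wnt5a at 0.82, and in treated replicate 3 they are at 1.65 and 1.20. Members on the right were picked for separate groups, so their side of the controls was fixed in every treated library.

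Treated replicate 3 was the highest library for 14 of the 30 tested members (46.7%), Wnt11 among them, beside 34.4% of genes. It was the lowest for 5 (16.7%), beside 34.2%. The 5 were Dkk3, Fzd3, Fzd5, Fzd8 and Wnt9a. In that library the mean log2 level of 11 sensory neuron markers was -0.30 relative to the control mean, against -0.09 to 0.11 in the other libraries. The part of neuron content in these values was not tested.

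Outside the 44 members, a list of 98 further pathway genes was examined, of which 92 were tested. None had an edgeR adjusted p under 0.05, while DESeq2 called 2, Jun and Bambi. At an unadjusted edgeR p under 0.05, 9 (9.78%) were higher and 7 (7.61%) lower in treated ganglia. The shares of all genes given above were 4% and 2.67%. The median log2 fold change of the list was 0.02, as for all genes, and 0.06 without treated replicate 3.

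R-spondins are secreted proteins that amplify Wnt signals by removing ubiquitin ligases from Frizzled receptors. Of the 9 genes for R-spondins, their receptors and these ligases none passed edgeR's adjusted threshold. Rspo1 had 7.28, 6.35 and 6.22 CPM in controls and 8.60, 10.2 and 12.2 CPM in treated libraries, without overlap and with a log2 fold change of 0.64 ± 0.19 (SE). Rspo3 had 1.49, 1.58 and 1.35 CPM against 0.595, 0.662 and 0.477, also without overlap, at -1.33 ± 0.42. The edgeR adjusted p was 0.67 for both. Rspo4, named after its values were seen, had 15.8, 15.7 and 12.1 CPM against 10.8, 10.5 and 1.11, at -0.93 ± 0.69 with an edgeR adjusted p of 0.776. Rspo2, the most abundant of its group per length, was at 0.13 ± 0.08. Their receptor Lgr6 stood at 2.36 ± 0.74, and at 1.30 without treated replicate 3, which held 6.84 CPM against 0.338 to 1.85 in the other libraries.

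Among other extracellular regulators, Frzb, a secreted Frizzled-related protein outside the symbol rule, stood at 0.80 ± 0.26 (SE) and at 0.47 without treated replicate 3. Cthrc1, a secreted protein that stabilises Wnt and Ror2 complexes, had 16.3, 14.9 and 15.2 CPM in controls and 12.7, 10.0 and 8.11 CPM in treated libraries, at -0.58 ± 0.18. Ptk7, a pseudokinase receptor of the cell polarity branch, was at -0.43 ± 0.15, or -0.28 without that library. The most abundant gene of this group per length was the antagonist Sostdc1, whose groups overlapped at 0.24 ± 0.29 (0.36 without that library). The glypican Gpc3, most abundant among secretion and release genes, was at -0.25 ± 0.35, or -0.69 without it.

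In the beta-catenin cascade, Ctnnb1, which encodes beta-catenin, was the most abundant gene per length and lay close to 0, at 0.04 ± 0.08 (SE). It had 284.2 to 293.8 CPM in controls and 293.0 to 303.8 CPM in treated libraries. The partner factors Lef1 at 0.05 ± 0.30 and Tcf7l2 at 0.20 ± 0.30 lay within their errors of 0 (0.27 and 0.32 without treated replicate 3). The corepressor Tle3 was at 0.63 ± 0.22 with overlap between groups. The related Tle4, named after its values were seen, was at -0.40 ± 0.15 and lower in every treated library. Groups overlapped for Tle1 and Tle2. Axin2, a feedback inhibitor that is the most widely used readout of beta-catenin activity, had 9.29, 15.8 and 9.12 CPM in controls and 12.4, 13.7 and 15.3 CPM in treated libraries. Its groups overlapped, at 0.27 ± 0.24, and leaving out 1 library moved it from 0.13 without control replicate 3 to 0.57 without control replicate 2.

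Of the 16 tested genes listed as beta-catenin targets, 2 were higher and 1 lower at an unadjusted edgeR p under 0.05, beside 4% and 2.67% of all genes. Jun, a subunit of AP-1 that is also induced by nerve injury, had 84.0, 86.5 and 67.5 CPM in controls and 115, 161 and 180 CPM in treated libraries. Myc, a growth regulator, had 5.56, 6.04 and 5.34 CPM against 9.08, 8.36 and 9.39, at 0.66 ± 0.17 (SE). Bambi, a decoy receptor of TGF-beta signalling, had 32.1, 30.1 and 34.3 CPM against 22.8, 20.4 and 15.3, at -0.72 ± 0.16, with an adjusted p of 0.568 in edgeR and 0.0340 in DESeq2. The groups of these 3 genes did not overlap.

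In the cell polarity and calcium branch, the calcium-dependent kinase Camk2g, at 0.38 ± 0.11 (SE), was higher in every treated library. The polarity gene Prickle2, at -0.27 ± 0.10, was lower in every treated library. Camk2a, named after its values were seen, was at -0.38 ± 0.15 with overlap between groups. Camk2b and Camk2d also overlapped. The median of the branch was -0.02 over 26 tested genes. At an unadjusted edgeR p under 0.05, 1 was higher and 2 lower, beside 4% and 2.67% of all genes.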

How the data were processed

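The authors deposited raw exonic read counts per gene, 1 file per library. Per the submitters' processing notes, bcl2fastq 2.20, STAR 2.7.7a, DESeq2 and edgeR were used with build mm10. The counting tool, gene annotation and use of strand were not given in the sources used here. Per the labels, libraries came from about 6 ng of total RNA with integrity numbers of 6.6 to 9.1 and were read at 100 bp, which limits the precision of low counts.

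Counts were fitted with edgeR 4.0.16 (R 4.3.3) by a robust quasi-likelihood F test of treated against control, without covariates, after filterByExpr with a minimum count of 10 and TMM scaling. Benjamini-Hochberg adjustment covered the 16019 genes tested, with a threshold of 0.05. SE is the size of the log2 fold change divided by the square root of F. CPM are counts per 1000000 counts of the TMM-adjusted library size. Log2 levels used a prior count of 2. Coordinates, exonic lengths and overlaps come from GENCODE M21 (GRCm38, the same build as mm10), which held 32663 of the 32719 genes and all 44 members. Limits set by a count of 0 cover counting error only.

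Members described library by library were the 4 most abundant per length in each class, all co-receptors and other receptors, and those with an unadjusted p under 0.05 or groups without overlap. Of the pathway list, Axin2, Lef1, Tcf7l2, Ctnnb1, the most abundant gene of each group and the 12 smallest p-values were named. The other members given with values were named after their values were seen. Members and lists were chosen with earlier results of these data known. DESeq2 1.42.0, limma 3.58.1, other scalings and filters, a replicate block and omission of single libraries were tried. On simulated counts with 195 of 15728 genes changed, 49.0% of 2-fold changes were recovered by edgeR, as were 73.2% of those at 4-fold, and among 126 genes called 7 were false. The simulated counts were drawn separately for each gene, with no outlying library and no shift shared between genes. These rates therefore need not hold for the real libraries.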

Additional observations from a re-analysis of the deposited data

How the results depend on the processing

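Low counts limit what can be read for the 14 untested members and Wnt11. The highest count of an untested member was 59, for Sfrp2 in treated replicate 3, the smallest library. The number of genes called over the whole table, 0 in edgeR as described, was 26 without a filter, 89 with DESeq2, 8 with limma-voom and sample weights, 1 with the replicate block, and 0 to 9 when 1 library was left out. No member was called in any of the 16 alternatives. Of the pathway list 1 gene was called without a filter (Jun) and 2 with DESeq2. Members at an unadjusted p under 0.05 and lower in treated numbered 0 with DESeq2 size factors, with library size alone and with at least 5 CPM in 3 libraries, 2 with sample weights and with the replicate block, and 0 to 2 when 1 library was left out; those higher in treated numbered 2 to 6 when 1 library was left out, with 2 without control replicate 1 or 3. The median of the tested members ran from -0.0154 without control replicate 1 to 0.29 without treated replicate 1. An unadjusted p under 0.05 was kept by Wnt5a in 16 of 16 alternatives, Wnt16 in 13 of 15, Sfrp1 in 13 of 16, Ror2 in 12 of 16, Fzd5 in 10 of 16 and Wnt11 reached it in 6 of 14. Deviations of same-numbered libraries from their group means correlated at 0.01, 0.56 and 0.49. Control replicates 2 and 3 correlated best with the treated library of the same number, and control replicate 1 with treated replicate 3 (0.13). Deviations from a group mean are not independent of each other, so these values cannot decide whether the replicate numbers pair the libraries. Signs changed in 27 of 618 values of named genes, and the cause was not tested. Fzd7 was at -0.12 with limma-voom, -0.11 with sample weights, -0.0077 with the replicate block, and from -0.26 without treated replicate 3 to 0.27 without treated replicate 1. Fzd2 was at -0.16 with limma-voom, -0.27 with sample weights, and from -0.59 without treated replicate 3 to 0.58 without control replicate 3. Sfrp5 was at -0.026 with limma-voom, -0.0786 with sample weights, -0.0175 with the replicate block, and from -0.26 without treated replicate 3 to 0.22 without treated replicate 1. Wnt6 was at -0.024 with limma-voom, -0.042 with sample weights, and from -0.26 without treated replicate 3 to 0.41 without treated replicate 1. Wnt9a was at 0.048 with sample weights. With 1 library left out, Wnt9a ran from -0.35 to 0.0471, Ryk from -0.13 to 0.0455, Gpc3 from -0.69 to 0.0073, Tcf7l2 from -0.018 to 0.56 and Lef1 from -0.21 to 0.27.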
